A study of Mus musculus with 96 samples.

Results

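Hematopoietic cells (HCs) of the infarcted mouse heart were compared between D3 and D1 after acute myocardial infarction (AMI). The comparison rests on 8 of the 96 small RNA libraries of the series, namely the 4 HC libraries of D3 and the 4 HC libraries of D1, and on every mature miRNA listed in their count tables. It addresses the days in which the early, neutrophil-rich infiltrate of the infarct is replaced by one rich in monocytes and macrophages. AMI was induced in male C57Bl/6J mice of 12 to 14 weeks by permanent ligation of the left anterior descending coronary artery, so all 8 libraries come from operated wild-type hearts without reperfusion. Cells were released from the heart, the cardiomyocytes (CMs) were spun down, and cells with the leukocyte surface protein CD45 were bound to magnetic beads. Endothelial cells (ECs) and then fibroblasts (FBs) were taken from the cells left over. For every library the RNA of 3 mice (2 for incomplete sets) was pooled, and all HC libraries were made from 150 ng of RNA with 15 PCR cycles. Bead enrichment does not give a pure population, and it does not separate neutrophils, monocytes, macrophages and lymphocytes from each other. The p-values measure only the spread between pooled libraries, which may be technical in part. That spread was estimated over all 24 HC libraries of 6 days, not over the 8 compared libraries alone.

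miRNAs are RNAs of about the length of a short primer that are cut from a hairpin precursor, loaded into an Argonaute protein and paired with messenger RNAs mainly through their seed, bases 2 to 8. Either arm of a hairpin can give a mature miRNA, called 5p or 3p, and miRNAs with the same seed form a family with largely shared targets. In leukocytes, miR-223 is the classical miRNA of granulocytes and monocytes, miR-142a is made in nearly all blood cells, and miR-21a, miR-146a and miR-155 are raised by inflammatory signals. Other miRNAs in a heart digest mark other cells, such as miR-1a and miR-133a in cardiac muscle, miR-126a in endothelium, and miR-143 and miR-145a in smooth muscle cells and pericytes.

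The mature miRNAs on which the comparison turns are given first, from the RefSeq entries of GRCm38.p6, in lower case with the seed in capitals. The first set rose at D3 or shares its seed with one that did. miR-34a-5p and miR-34b-5p share a seed, and so do miR-222-3p and miR-221-3p. The abundant let-7f-5p shares the seed of let-7i-5p.
miR-34a-5p: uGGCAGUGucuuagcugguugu
miR-34b-5p: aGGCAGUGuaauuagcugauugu
miR-222-3p: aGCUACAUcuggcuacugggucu
miR-221-3p: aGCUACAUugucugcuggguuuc
miR-21a-5p: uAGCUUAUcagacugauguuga
let-7i-5p: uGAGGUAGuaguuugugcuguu
let-7f-5p: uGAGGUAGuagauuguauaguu
miR-511-3p: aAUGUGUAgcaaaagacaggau

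The second set fell at D3. miR-125a-5p and miR-125b-5p share a seed, as do the 3 members of the miR-30 family shown and the pair miR-204-5p and miR-211-5p.
miR-126a-3p: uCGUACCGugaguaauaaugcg
miR-126b-5p: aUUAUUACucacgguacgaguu
miR-125a-5p: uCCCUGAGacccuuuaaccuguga
miR-125b-5p: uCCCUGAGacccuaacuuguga
miR-30a-5p: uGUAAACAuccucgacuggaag
miR-30c-5p: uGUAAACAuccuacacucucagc
miR-30e-5p: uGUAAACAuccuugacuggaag
miR-204-5p: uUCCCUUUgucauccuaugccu
miR-211-5p: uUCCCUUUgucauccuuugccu
miR-135a-5p: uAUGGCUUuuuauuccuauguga

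The total count on mature miRNAs ranged from 4684153 to 9808466 per library at D1 and from 3245029 to 24081381 at D3, where replicate 2 held 24081381 and the other 3 held at most 6230557. A further 52.1% to 73.8% of the reads of a D1 library and 59.3% to 62.5% of a D3 library matched no mature miRNA. Levels are given as counts per 1000000 counts on the tested miRNAs (CPM), scaled with TMM factors, which assume that most miRNAs do not change. CPM values depend on the efficiency of adaptor ligation, which differs between sequences, so the same miRNA is compared between days and levels of different miRNAs are only a rough order. miR-223-3p, at a plain CPM of 3115 in these 8 libraries, was at 1.11 to 4.72 CPM in the CM, EC and FB libraries, and miR-142a-3p, at 11772 CPM, was at 12.2 to 41.5 CPM there, so both set the HC libraries apart from the other cells. miR-150-5p and miR-155-5p did not mark the HC libraries in the same way, since the ECs held 2544 CPM of miR-150-5p against 2034 CPM and the CMs 145 CPM of miR-155-5p against 144 CPM.

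At D3, 97 of the 608 tested miRNAs differed from D1 (16% of those tested; edgeR quasi-likelihood test, Benjamini-Hochberg adjusted p under 0.05). miR-21a-5p, the miRNA with the highest mean CPM, rose, together with miR-34a-5p, miR-222-3p, miR-221-3p and let-7i-5p. The falls were led by miR-126a-3p, the miR-143 and miR-145a arms, miR-125a-5p and miR-1a-3p, and included most of the miR-30 family. miR-223-3p and miR-142a-3p of leukocytes did not pass the test, nor did miR-155-5p. In all, 38 miRNAs rose (6.25%) and 59 fell (9.7%). The counts of calls in lists, families and clusters below are to be read beside these shares. The rises had a median log2 fold change of 0.92 and the falls one of -0.94, while the median over all tested miRNAs was 0.04. The libraries of the 2 days did not overlap for 118 of the 608 miRNAs (19.4%), namely 47 higher (7.73%) and 71 lower (11.7%). With DESeq2 in place of edgeR 91 miRNAs differed, of which 47 rose and 44 fell.

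The rises and falls were found at different levels. Of the 38 rises, 19 had a mean under 10 CPM and 11 one of at least 100 CPM, with a median of 10.5 CPM. Of the 59 falls, 9 were under 10 CPM and 32 at or above 100 CPM, with a median of 127 CPM. Calls were more frequent among abundant miRNAs, from 9.40% of the 298 miRNAs under 10 CPM and 17.2% of the 151 between 10 and 100 CPM to 23.5% of the 81 between 100 and 1000 CPM and 30.8% of the 78 above. The part of depth in this gradient was not tested. The 10 most abundant miRNAs took 49.8% to 53.2% of the counts in the D1 libraries and 55.1% to 58.6% in the D3 libraries, 2 ranges that do not overlap.

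**Figure D1:**
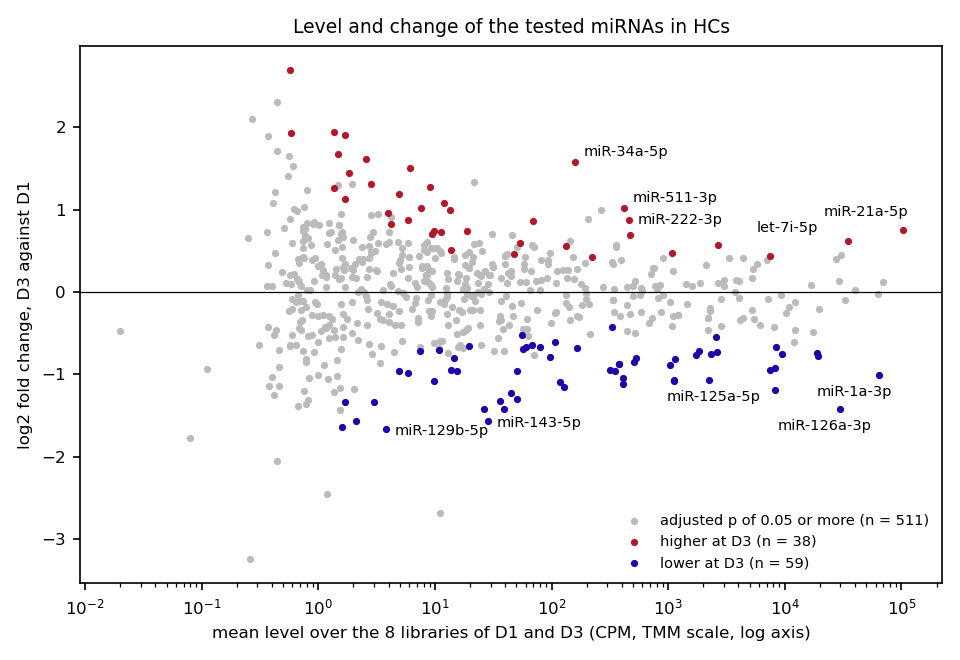
Each point is 1 of the 608 tested miRNAs, with its mean level over the 8 libraries on the x axis (CPM, TMM scale, log axis) and its log2 fold change at D3 against D1 on the y axis; red marks the 38 rises, blue the 59 falls and grey the 511 others. The calls at the highest levels are the rises of miR-21a-5p and let-7i-5p and the falls of miR-126a-3p, miR-1a-3p, miR-30a-5p and miR-30d-5p, and 19 of the 38 red points lie under 10 CPM.

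miR-34a-5p, a target gene of p53 that restrains the cell cycle, had the largest rise among miRNAs with at least 100 CPM. Its level was 73.8, 59.9, 109 and 78.8 CPM in replicates 1 to 4 of D1 and 200.2, 255, 149.8 and 356 CPM in those of D3. Every D3 library lay above every D1 library, and the mean went from 80.5 ± 20.9 to 240.1 ± 88.3 CPM (SD, n = 4; log2 fold change 1.58, SE 0.24, adjusted p = 9.25e-05). It is encoded outside other annotated genes at chr4:150068454-150068555 on the plus strand (GRCm38). The 5 tested arms of miR-34a, miR-34b and miR-34c all had positive changes, with a median of 0.54, beside 0.04 over all tested miRNAs. Of the 5 arms 2 rose past the threshold, beside 6.25% of all tested miRNAs. Of the 3 tested miRNAs matched to the seed of miR-34a-5p by sequence, only 2 had a positive change, and miR-449a-5p did not. miR-34b-5p was 13.2, 14.6, 11.96 and 16.5 CPM in replicates 1 to 4 of D1 and 14.1, 22.4, 20.4 and 38.3 CPM in those of D3 (log2 fold change 0.74, SE 0.24, adjusted p = 0.0352). Its highest value was in D3 replicate 4, and without that library the change was 0.43 with an adjusted p of 0.218. The call was also lost without replicate 1, 2 or 3 of D1 or replicate 2 of D3, with adjusted p from 0.0522 to 0.0789. miR-34c-5p did not overlap between the days but missed the threshold (log2 fold change 0.54, SE 0.20, adjusted p = 0.0624), which it passed without D3 replicate 3 (0.61, adjusted p = 0.044). The 3p arms miR-34b-3p and miR-34c-3p had changes of 0.54 and 0.41 at mean levels of 1.60 and 0.757 CPM, and neither passed the test.

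miR-221 and miR-222, which share a seed and target the cell cycle inhibitor p27, lie next to each other on the minus strand of the X chromosome (chrX:19146294-19146388 and chrX:19146893-19146971), outside other annotated genes. All 3 tested arms of this pair with at least 100 CPM rose, and the fourth, miR-222-5p at 9.46 CPM, had a change of 0.07, adjusted p = 0.935. miR-222-3p was 323, 319, 335 and 336 CPM in replicates 1 to 4 of D1 and 682, 499, 558 and 668 CPM in those of D3. The D1 libraries lay close together, and the lowest D3 library was well above the highest of them (log2 fold change 0.87, SE 0.14, adjusted p = 1.01e-04). miR-221-3p, the more abundant partner, was 1791, 1939.5, 2460.5 and 2447 CPM in replicates 1 to 4 of D1 and 3424, 2846, 2779.9 and 3776 CPM in those of D3 (log2 fold change 0.57, SE 0.14, adjusted p = 0.00543). miR-221-5p, from the other arm of the same hairpin, went from 188 ± 12.9 to 253 ± 13.2 CPM (SD, n = 4; log2 fold change 0.43, SE 0.15, adjusted p = 0.048), a call close to the threshold that was lost without any 1 of the 8 libraries except D1 replicate 3, with adjusted p from 0.0522 to 0.0982.

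miR-21a-5p, which is raised in activated macrophages and many injured tissues, had the highest mean CPM of the tested miRNAs. It was 68246, 83625, 61611 and 93140 CPM in replicates 1 to 4 of D1 and 120740, 133530, 108400 and 153790 CPM in those of D3. All D3 libraries lay above all D1 libraries and the mean rose from 76655 ± 14346 to 129110 ± 19386 CPM (SD, n = 4; log2 fold change 0.75, SE 0.17, adjusted p = 0.00246). Its hairpin overlaps an annotated exon of the protein-coding gene Vmp1 on the minus strand (chr11:86584067-86584158). miR-21a-3p, from the other arm, had a change of 0.70 that missed the threshold (adjusted p = 0.071, and 0.0334 and 0.0112 without D1 replicate 4 and D3 replicate 3) at a mean of 45.9 CPM.

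let-7i-5p, one of the let-7 miRNAs that mark differentiated cells, was 29314, 29106, 24235 and 27378 CPM in replicates 1 to 4 of D1 and 43352, 36774, 54901 and 34364 CPM in those of D3 (log2 fold change 0.62, SE 0.14, adjusted p = 0.00332). It rose without overlap, and the highest value was in D3 replicate 3. miR-98-5p, which carries the same seed, rose from 902 ± 74.9 to 1254 ± 211 CPM (SD, n = 4; log2 fold change 0.48, SE 0.14, adjusted p = 0.0228), with D3 replicate 4 inside the range of D1. Its call was lost without replicate 1 or 3 of D1 or replicate 1, 2 or 3 of D3, with adjusted p from 0.0531 to 0.0992. The rest of the let-7 list, 17 of 19 tested arms, did not pass the test, and the median of the list was 0.02. let-7f-5p, the most abundant of them at 69517 CPM, had a change of 0.12, adjusted p = 0.603. let-7a-5p had one of -0.03, adjusted p = 0.922 and let-7g-5p one of 0.02, adjusted p = 0.93. let-7e-3p had the largest change of the list at 10 CPM or more (-0.74, adjusted p = 0.0533), and passed the test without D1 replicate 4 or D3 replicate 4 (-0.86 and -1.03, adjusted p = 0.0237 and 0.0104).

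The other rises named by level were miR-22-5p and miR-7a-5p. miR-22-5p was 98.6, 94.9, 122 and 113 CPM in replicates 1 to 4 of D1 and 151, 134, 167 and 181 CPM in those of D3 (log2 fold change 0.56, SE 0.14, adjusted p = 0.00729). Its hairpin lies on chromosome 11 (chr11:75463716-75463810) and overlaps annotated exons of the noncoding RNA Mir22hg and of Tlcd2. miR-7a-5p rose from 6375 ± 612 to 8611 ± 823 CPM (SD, n = 4; log2 fold change 0.43, SE 0.14, adjusted p = 0.0394), and its call was lost without any 1 of the 8 libraries except replicate 2 of either day, with adjusted p from 0.0539 to 0.111. miR-7b-5p, with the same seed, had a change of 0.39, adjusted p = 0.0749. miR-7a-1-3p, from the other arm of a miR-7a hairpin and with another seed, had one of 0.49, adjusted p = 0.0561. Neither of them overlapped between the days, and miR-7a-1-3p passed the test without D1 replicate 4 or D3 replicate 3 (0.57 and 0.56, adjusted p = 0.0407 and 0.0345). miR-7a-5p and miR-7b-5p are nearly identical in sequence, so how reads were shared between them is uncertain.

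Some rises were small in size and depend on the scaling. With TMM factors taken only from the 325 miRNAs whose plain CPM was higher in HCs than in the other 3 cell types, a choice made after seeing the data, the changes of let-7i-5p, miR-221-3p, miR-22-5p, miR-7a-5p, miR-221-5p, miR-98-5p and miR-34b-5p kept their sign, between 0.30 and 0.63, but their adjusted p lay between 0.0813 and 0.361. The rises of miR-362-5p (adjusted p = 0.0955), miR-500-3p (adjusted p = 0.118), miR-381-3p (adjusted p = 0.0528) and miR-134-5p (adjusted p = 0.0667) and the fall of miR-100-5p (adjusted p = 0.0669) missed the threshold too. miR-34a-5p, miR-222-3p, miR-21a-5p, miR-511-3p, miR-326-3p and miR-324-5p still passed. Under this scaling 80 miRNAs differed, 19 higher and 61 lower, so that 23.8% of the calls were rises against 39.2% above. Library size alone gave 116 calls with 54.3% rises and RLE size factors gave 122 with 58.2%, and they moved the median of all tested miRNAs from 0.04 to 0.13 and 0.16.

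**Figure D2:**
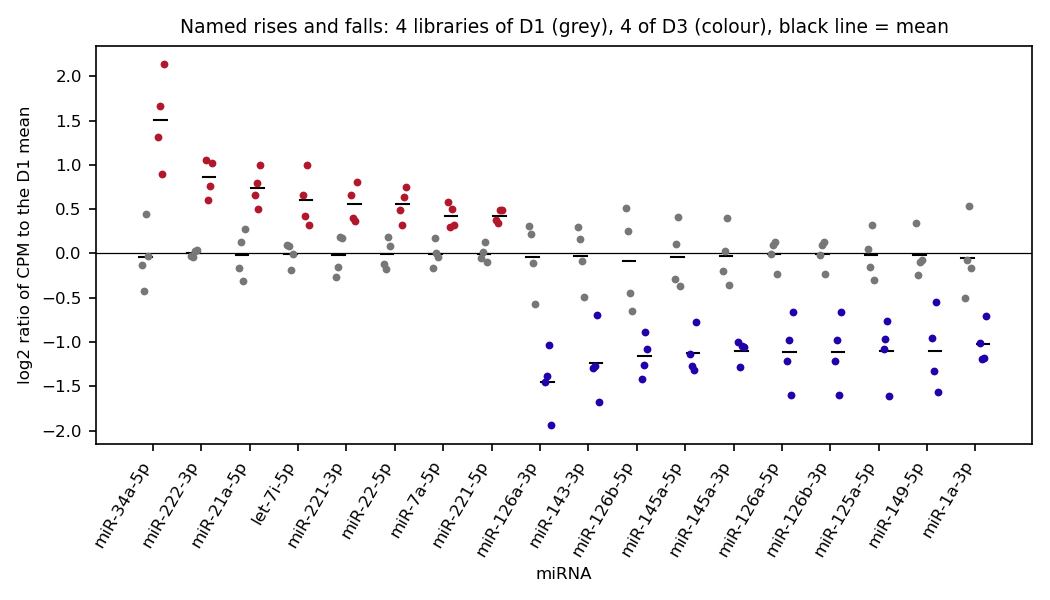
The 8 rises and 10 falls with at least 100 CPM and no overlap that were named by rule are plotted as the log2 ratio of the CPM in each library to the D1 mean, with D1 in grey, D3 in red or blue and the mean as a black line. The D3 and D1 points do not overlap for any of the 18, and miR-34a-5p and miR-126a-3p lie farthest from 0.

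The falls among abundant miRNAs were led by miRNAs of other heart cells. miR-126a-3p, the miRNA of endothelial cells that sustains VEGF signalling, was 53151, 50143, 39798 and 28848 CPM in replicates 1 to 4 of D1 and 15754, 16532, 20929 and 11185 CPM in those of D3. It fell without overlap, from 42985 ± 11024 to 16100 ± 3991 CPM (SD, n = 4; log2 fold change -1.42, SE 0.24, adjusted p = 3.24e-04). In bulk libraries fewer cells of a type and less of a miRNA per cell cannot be told apart. Its hairpin lies in the gene Egfl7 and overlaps an exon of some annotated transcript of it (chr2:26591357-26591429, plus strand). Whether it is an intron in the other transcripts was not examined. The hairpin of miR-126b lies on the opposite strand at the same place (chr2:26591363-26591420), and miR-126a-5p and miR-126b-3p had nearly equal counts, so the falls of miR-126a-5p (-1.07) and miR-126b-3p (-1.07) are not independent of each other. miR-126b-5p, at 127 CPM, fell by 1.15 on the log2 scale. Most of its sequence is the reverse complement of miR-126a-3p, and whether its fall is separate from that of miR-126a-3p was not tested.

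The miRNAs of the mural cell list, which mark smooth muscle cells and pericytes, all fell. miR-143-3p was 14053, 12885, 10793 and 8129.6 CPM in replicates 1 to 4 of D1 and 4669.6, 4754, 7055 and 3592 CPM in those of D3 (log2 fold change -1.19, SE 0.22, adjusted p = 4.56e-04). miR-145a-5p was 459, 604, 746 and 436 CPM in replicates 1 to 4 of D1 and 255, 232, 226 and 328 CPM in those of D3 (log2 fold change -1.11, SE 0.26, adjusted p = 0.00448), and all D3 libraries again lay below all D1 libraries. miR-145a-3p and miR-143-5p had log2 fold changes of -1.09 and -1.57.

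In the cardiomyocyte list 5 of 9 tested arms fell (55.6%, beside 9.7% of all tested miRNAs), none rose and the median was -0.95. miR-1a-3p, the most abundant miRNA of heart muscle, was 60291, 81427, 124260 and 76448 CPM in replicates 1 to 4 of D1 and 42592, 37407, 37763 and 52373 CPM in those of D3 (log2 fold change -1.01, SE 0.20, adjusted p = 0.00113). D1 replicate 3 held the highest level of miR-1a-3p, miR-133a-3p, miR-499-5p and both miR-208a arms, and without it the change of miR-1a-3p was -0.73 (adjusted p = 0.012). miR-133a-3p went from 466 ± 174 to 239.7 ± 40.3 CPM and miR-499-5p from 651 ± 209 to 361 ± 108 CPM (SD, n = 4; -0.96, adjusted p = 0.00729, and -0.85, adjusted p = 0.0177). Without D1 replicate 3 they missed the threshold, with changes of -0.64 and -0.58 and adjusted p of 0.0729 and 0.129. The call of miR-499-5p was also lost without D3 replicate 1 or 2 (adjusted p = 0.0824 and 0.0993). miR-133a-3p shares most of its bases with miR-133b-3p (-0.95), so these calls may rest on the same reads, and miR-133b-3p also missed the threshold without D1 replicate 3 (-0.64, adjusted p = 0.0726). miR-208a-3p, encoded in a myosin gene, missed the threshold (-0.77, adjusted p = 0.0595) and passed it without D1 replicate 1 or D3 replicate 4 (-0.93 and -0.88, adjusted p = 0.0291 and 0.0477). miR-208a-5p, at a mean of 1.58 CPM, fell by 1.64 on the log2 scale.

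The cardiomyocyte, endothelial and mural lists each had lower sums at D3 than at D1. Within a day their sums did not rank the libraries alike. D1 replicate 1 had the lowest cardiomyocyte and the highest endothelial sum of its day. D3 replicate 4 had the highest cardiomyocyte and the lowest endothelial sum. The summed CPM of the cardiomyocyte list was 61417 to 126700 at D1 and 38168 to 53469 at D3. That of the endothelial list, where both tested arms fell, was 30148 to 54668 at D1 and 12150 to 21436 at D3. That of the mural list, where 4 of 4 fell, was 8729 to 14688 at D1 and 4010 to 7368 at D3. In each of the 8 libraries miR-1a-3p was at 37407 CPM or more, miR-126a-3p at 11185 CPM or more and miR-143-3p at 3591.5 CPM or more. Of the 13 members of the cardiomyocyte list, 12 had a count in the HC libraries. In plain CPM, miR-1a-3p was at 69306 in these HC libraries compared with 505170 in the CM libraries, and miR-126a-3p at 31576 compared with 192940 in the EC libraries. The 6 tested arms of the fibroblast list, in which miR-199a-3p and miR-199b-3p have identical counts, changed by -0.32 to 0.54 and none passed the test, with miR-199a-3p, the most abundant, at -0.32, adjusted p = 0.281. The single hepatocyte marker tested, miR-122-5p, was at a mean of 1.63 CPM (-0.54, adjusted p = 0.325), and 0 of the 7 tested arms of the epithelial miR-200 family passed, with changes from -0.38 for miR-200c-3p to 0.54.

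**Figure D3:**
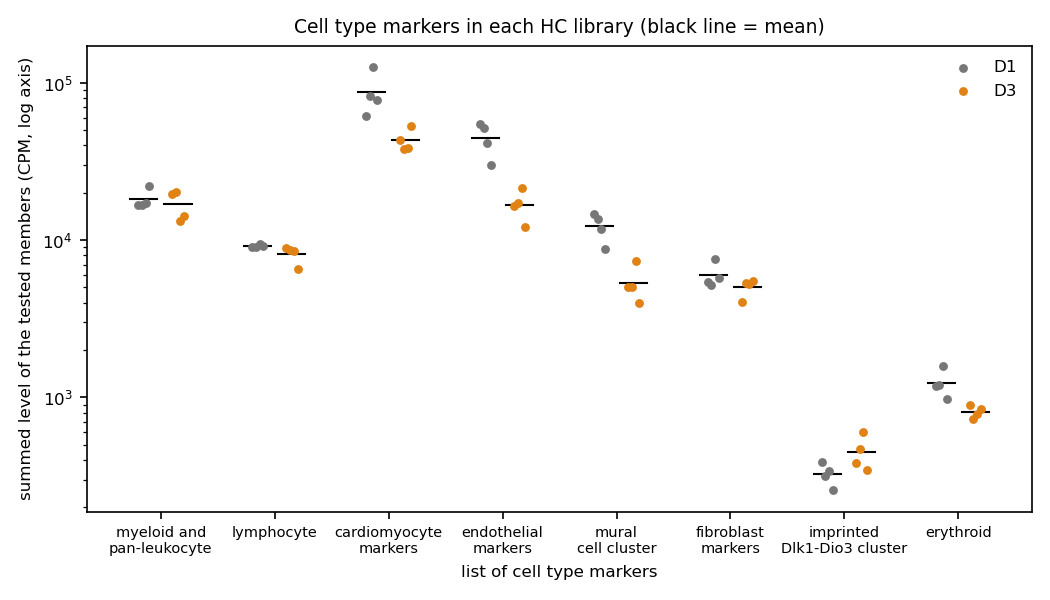
The summed CPM of the tested members of each list of cell type markers is plotted on a log axis for the 4 libraries of D1 (grey) and the 4 of D3 (orange), with the mean as a black line. The cardiomyocyte, endothelial, mural, lymphocyte and erythroid sums of D3 lie below those of D1 without overlap, the fibroblast, myeloid and Dlk1-Dio3 sums overlap, and identical rows such as miR-199a-3p and miR-199b-3p are both counted.

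The levels of the called miRNAs in the other cell types were set beside the direction of their change. The HC level is the mean over D1 and D3, so all of the shares below use data of the test. Of the 59 falls, 49 (83.1%) had a higher plain CPM in ECs than in these HC libraries, against 215 of the 608 tested miRNAs (35.4%) and 11 of the 38 rises (28.9%). For CMs the shares were 52.5% of the falls, 18.6% of the tested and 10.5% of the rises. HCs had the highest level of the 4 cell types for 26 rises (68.4%), for 5 falls (8.47%) and for 325 of the tested miRNAs (53.5%). Among those 325, 26 rose and 5 fell, with a median log2 fold change of 0.17. Among the 89 highest in ECs 1 rose and 26 fell (median -0.52), and among the 60 highest in CMs 1 rose and 20 fell (median -0.64). The part that RNA of other cells had in the falls was not tested.

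The miRNAs of blood cells showed no call in the list of myeloid and pan-leukocyte miRNAs, 0 of 4. miR-223-3p was 2860.4, 2325, 3687 and 4124 CPM in replicates 1 to 4 of D1 and 2587, 2316, 2055 and 2843 CPM in those of D3 (log2 fold change -0.41, SE 0.16, adjusted p = 0.0804), and the days overlapped. Without D1 replicate 2 its change was -0.54 with an adjusted p of 0.0207. miR-223-5p had a change of -0.24, adjusted p = 0.511. miR-142a-3p was 10507, 11279, 10611 and 13521 CPM in replicates 1 to 4 of D1 and 13353, 13279, 7898 and 5803 CPM in those of D3 (-0.19, adjusted p = 0.653), with D3 spread over a wider range than D1. miR-142a-5p, from the other arm, had a change of 0.41, adjusted p = 0.263. These miRNAs are made in both granulocytes and monocytes, so the turn from one to the other could not be checked with them. The lymphocyte list, with 0 of 13 called and a median of -0.12, held miR-150-5p of mature lymphocytes at 1798 ± 348 and 1941 ± 703 CPM (SD, n = 4; 0.11, adjusted p = 0.864). miR-181a-5p, its most abundant member, had -0.34, adjusted p = 0.531, miR-342-3p 0.34, adjusted p = 0.263 and miR-181a-2-3p -0.55, adjusted p = 0.106. miR-181a-2-3p passed without D3 replicate 3 (-0.73, adjusted p = 0.0427). The summed level of the lymphocyte list was 9019 to 9387 CPM at D1 and 6568 to 8860 CPM at D3, so the days did not overlap.

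Of the 16 tested arms of miRNAs raised by inflammation, 1 rose and 2 fell, with a median of -0.18. The share called was 18.75%, near the 16% of all tested miRNAs. The rise was miR-21a-5p. miR-9-5p fell, from 62.4, 74.8, 82.2 and 60.2 CPM at D1 to 40.4, 40.5, 52.9 and 38.5 CPM at D3 (log2 fold change -0.70, SE 0.15, adjusted p = 0.00161), and miR-132-5p, at a mean of 7.51 CPM, fell by 0.72 on the log2 scale and missed the threshold without D1 replicate 1 or 4 or D3 replicate 1, with adjusted p from 0.0527 to 0.0827. miR-146a-5p, a brake on signalling from Toll-like receptors, was 14221, 14870, 16511 and 11009 CPM in replicates 1 to 4 of D1 and 8723, 10756, 10936 and 10793 CPM in those of D3 (log2 fold change -0.46, SE 0.16, adjusted p = 0.0568). Its D3 libraries all lay below those of D1, but the change missed the threshold, which it passed without D1 replicate 4 (-0.54, adjusted p = 0.0406). miR-155-5p, which promotes inflammatory macrophages, was 112, 208, 125 and 107 CPM at D1 and 139, 123, 112 and 128 CPM at D3 (-0.13, adjusted p = 0.791), and miR-147-3p had a change of 0.26, adjusted p = 0.53.

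Of the 12 tested arms linked to macrophages 1 rose and 2 fell (25% called, beside 16% of all tested miRNAs). miR-511-3p, encoded in the gene of the macrophage mannose receptor, was 232, 170.2, 419 and 284 CPM in replicates 1 to 4 of D1 and 453, 581, 291 and 916 CPM in those of D3 (log2 fold change 1.02, SE 0.29, adjusted p = 0.0143). D3 replicate 3 lay inside the range of D1, and D3 replicate 4 was the highest. The call was lost without D1 replicate 1, D1 replicate 2 or D3 replicate 4, with changes of 0.95, 0.85 and 0.69 and adjusted p from 0.0512 to 0.0871. In plain CPM it was at 470.1 in these HC libraries and at 0.208 to 3.62 in the other cell types. miR-378a-3p, encoded in a regulator of oxidative metabolism and abundant in muscle, fell from 3105, 3274, 3983 and 2724 CPM to 2019, 1936, 1964 and 1952 CPM (log2 fold change -0.73, SE 0.15, adjusted p = 0.00146), and it was at 20531 CPM in the CM libraries. let-7e-5p, the most abundant of the list, had a change of -0.12, adjusted p = 0.656.

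miR-125a-5p, which shares its primary transcript with let-7e and miR-99b and is counted in the macrophage-linked list, fell. It was 3122, 2704, 3775 and 2440.5 CPM in replicates 1 to 4 of D1 and 1421, 1539, 1777 and 983 CPM in those of D3 (log2 fold change -1.07, SE 0.22, adjusted p = 0.00113). Its hairpin overlaps an annotated exon of Spaca6 (chr17:17830812-17830879, plus strand). In the list of the miR-99, miR-100 and miR-125 families 3 of 9 fell, none rose and the median was -0.61. The falls were 33.3% of the list, beside 9.7% of all tested miRNAs. miR-125b-5p, with the same seed, went from 2281 ± 414 to 1389 ± 251 CPM (SD, n = 4; log2 fold change -0.72, SE 0.19, adjusted p = 0.00925), and missed the threshold without D1 replicate 3 (-0.55, adjusted p = 0.0611). miR-100-5p fell by 0.75 on the log2 scale with overlap between the days, and its call was lost without any 1 of the 8 libraries except D1 replicate 4 and D3 replicate 3, with adjusted p from 0.0715 to 0.147. miR-99a-5p, the most abundant of the list, had -0.61, adjusted p = 0.0818, and passed without D3 replicate 3 (-0.80, adjusted p = 0.0299). In plain CPM, miR-125a-5p was at 2383 in these libraries, 8839.6 in ECs and 9965 in FBs.

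The miR-30 family, which is abundant in heart muscle and endothelium, fell in most of its arms. Of 11 tested arms 7 fell (63.6%, beside 9.7% of all tested miRNAs), none rose and the median was -0.74. miR-30a-5p was 26334, 24219, 24756 and 21974 CPM in replicates 1 to 4 of D1 and 13678, 16464, 16916 and 9616 CPM in those of D3 (log2 fold change -0.78, SE 0.17, adjusted p = 0.00196). miR-30d-5p and miR-30e-5p had changes of -0.74, adjusted p = 0.00493, and -0.92, adjusted p = 3.39e-04, and their days did not overlap. miR-30c-5p fell by 0.67 and missed the threshold without D1 replicate 3 (-0.53, adjusted p = 0.069). miR-30b-5p, with the same seed, did not follow, at 1398, 1398, 2518 and 2166 CPM at D1 and 2099, 2087, 1732 and 3481 CPM at D3 (0.33, adjusted p = 0.266). In plain CPM miR-30a-5p was at 42606 in ECs and 22249 in CMs against 20742 here.

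Further falls came from the cluster of miR-322 and miR-503 on the X chromosome. There 5 of 13 tested arms fell (38.5%, beside 9.7% of all tested miRNAs). All 13 had negative changes (median -0.47, beside 0.04 over all tested miRNAs). miR-322-3p went from 237, 174, 201 and 204 CPM to 126, 125, 148 and 110.5 CPM (log2 fold change -0.68, SE 0.17, adjusted p = 0.00729). miR-503-3p and miR-542-3p had -0.94, adjusted p = 0.00729, and -0.61, adjusted p = 0.0161, and miR-542-3p lost its call without D1 replicate 3 or 4 or D3 replicate 1, with adjusted p from 0.0578 to 0.0824. miR-450a-5p, the most abundant, missed the threshold (-0.47, adjusted p = 0.0989) and passed it without D3 replicate 4 (-0.70, adjusted p = 0.0146). In the related miR-15/16 family the only arms to fall were both arms of miR-195a, by 0.67 and 0.96 on the log2 scale, and the median of the 10 tested arms was 0.02. The call of miR-195a-5p was lost without any 1 of the 8 libraries except D1 replicate 4 and D3 replicates 2 and 3, and that of miR-195a-3p without D1 replicate 1 or D3 replicate 1 or 4, with adjusted p from 0.0514 to 0.108. miR-149-5p, encoded in an intron of Gpc1 (chr1:92850378-92850443), was 703, 467, 518 and 528 CPM in replicates 1 to 4 of D1 and 285, 221, 379 and 188 CPM in those of D3 (log2 fold change -1.05, SE 0.22, adjusted p = 0.00146).

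Below 100 CPM, the steepest falls with close family members were those of the pairs miR-135a-5p with miR-135b-5p and miR-204-5p with miR-211-5p, which were chosen after their values were seen. miR-135a-5p was 72.2, 52.9, 89.1 and 72.4 CPM at D1 and 35.1, 26.5, 27.2 and 27.9 CPM at D3 (log2 fold change -1.30, SE 0.20, adjusted p = 9.25e-05). miR-135b-5p had a change of -1.42, adjusted p = 8.62e-05, and neither overlapped between the days. miR-204-5p was 60.2, 62.1, 50.5 and 32.7 CPM at D1 and 17.2, 16.8, 31.5 and 16.7 CPM at D3 (log2 fold change -1.32, SE 0.24, adjusted p = 4.56e-04), and miR-211-5p had -1.42, adjusted p = 0.00111. The members of each pair are nearly identical in sequence, so how reads were shared between them is uncertain. In plain CPM miR-204-5p was at 494 in ECs against 38.4 in these libraries. miR-135a-5p was at 73.1 CPM in CMs and 54.3 here.

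The rises under 100 CPM included 9 of the 47 tested arms of the imprinted Dlk1-Dio3 cluster, a list used as a marker of FBs. The rises were 19.1% of the list, beside 6.25% of all tested miRNAs. None of the arms of the cluster fell and the median was 0.57. miR-409-3p was 4.81, 3.43, 2.06 and 2.50 CPM at D1 and 7.29, 7.24, 15.3 and 6.33 CPM at D3 (log2 fold change 1.50, SE 0.32, adjusted p = 0.00161). miR-300-3p, miR-381-3p and miR-134-5p had changes of 1.27, adjusted p = 0.00246, 1.08, adjusted p = 0.00729, and 1.02, adjusted p = 0.00996. All of these were at a mean of at most 12.1 CPM, and their levels in FBs were 219 to 276 plain CPM, against 6.66 to 13.3 in these HC libraries. miR-127-3p, the most abundant of the cluster, had 0.27, adjusted p = 0.439. The summed level of the cluster was 256 to 389 CPM at D1 and 347 to 604 CPM at D3 over the 47 tested arms, so the days overlapped. In the 32 tested arms around miR-379 on chromosome 12 (chr12:109709060-109747960), 28 had a positive change, beside 55.2% of the 134 tested miRNAs highest in FBs. Of the 32 arms 6 rose, beside 6.25% of all tested miRNAs.

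Other rises under 1000 CPM came from miRNAs with their highest level in HCs, and were likewise chosen after their values were seen. miR-326-3p was 51.7, 40.7, 52.98 and 51.4 CPM at D1 and 91.0, 95.8, 81.9 and 87.4 CPM at D3 (log2 fold change 0.86, SE 0.15, adjusted p = 4.56e-04). miR-324-5p rose from 9.07 ± 1.88 to 18.03 ± 4.18 CPM (SD, n = 4; 0.99, adjusted p = 0.002). The cluster around miR-500 on the X chromosome (chrX:7237683-7248497) had a positive change in 9 of 9 tested arms, beside 64.6% of the 325 tested miRNAs highest in HCs. Of the 9 arms 2 rose, beside 6.25% of all tested miRNAs, namely miR-362-5p (0.70, adjusted p = 0.0174) and miR-500-3p (0.60, adjusted p = 0.0134). In both, D3 replicate 3 lay inside the range of D1, and the call was lost without D1 replicate 1 (0.56 and 0.53, adjusted p = 0.0789 and 0.0554). miR-362-5p also lost it without D1 replicate 2 or D3 replicate 4 (0.57 and 0.53, adjusted p = 0.075 and 0.0788).

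**Figure D4:**
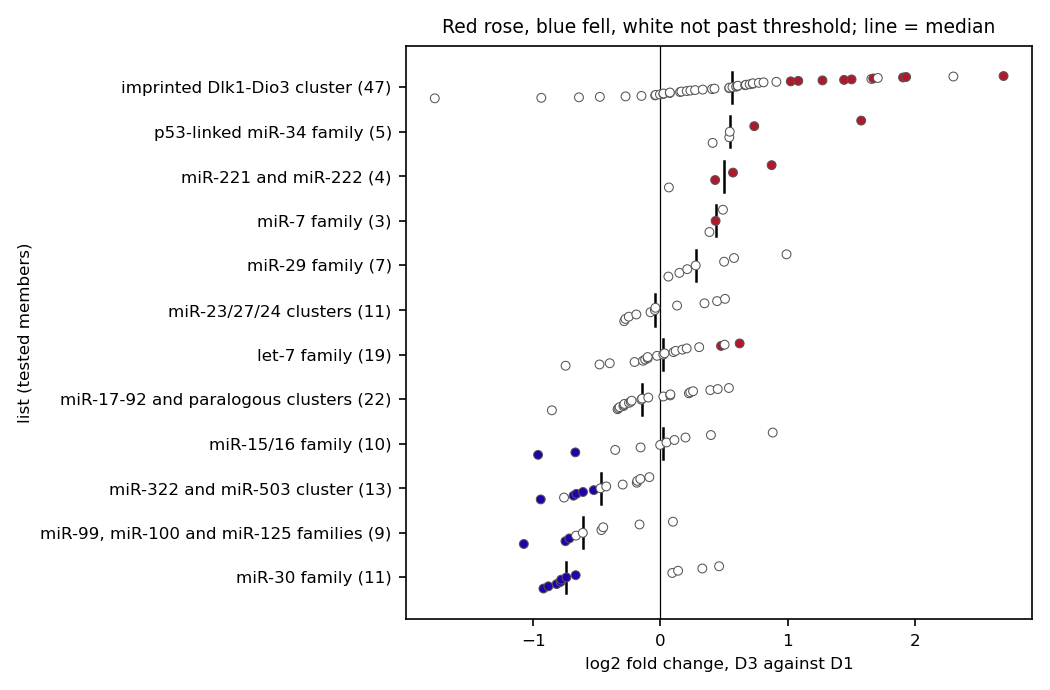
Each point is a tested arm of the list named on the y axis, with the number of tested arms in brackets, at its log2 fold change at D3 against D1 on the x axis; red arms rose, blue arms fell, white arms did not pass the threshold and the black line is the median of the list. The miR-30 list, with 7 of 11 blue, has its blue points between -0.92 and -0.67, the list of miR-221 and miR-222 and the miR-34 list lie above 0 throughout, and the let-7 and miR-17-92 lists straddle 0.

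Several families stayed short of any call. In the miR-17-92 clusters and their paralogs, which drive proliferation of blood cell precursors, 0 of 22 tested arms passed, with miR-25-3p at -0.33, adjusted p = 0.263 as the most abundant, miR-20a-5p at -0.32, adjusted p = 0.376 and miR-106b-5p at 0.39, adjusted p = 0.303. In the miR-23/27/24 clusters 0 of 11 passed. miR-27b-3p was 25711, 25701, 24705 and 26636 CPM in replicates 1 to 4 of D1 and 36828, 33531, 36824 and 32715 CPM in those of D3 (log2 fold change 0.45, SE 0.16, adjusted p = 0.0615), a difference without overlap that missed the threshold. It passed when replicate 3 of D0, a library of 18286 counts that shares in the estimate of the spread, was left out (0.47, adjusted p = 0.00679). miR-27a-3p, with the same seed, had 0.13, adjusted p = 0.685. In the miR-29 family 0 of 7 passed, with changes from 0.06 to 0.99. The largest was that of miR-29b-3p, where D3 replicate 2 held 767 CPM and the other 7 libraries 129 to 296 CPM. miR-29a-3p, the most abundant, had 0.28, adjusted p = 0.553.

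The families of miR-26, of miR-130 and miR-301, of miR-148 and miR-152, and of miR-28 and miR-151 had no call either, with 0 of 4, 0 of 7, 0 of 6 and 0 of 6 tested arms. Their most abundant members were miR-26a-5p with -0.10, adjusted p = 0.654, miR-130b-5p with 0.18, adjusted p = 0.69, miR-148a-3p with -0.48, adjusted p = 0.178 and miR-151-3p with -0.49, adjusted p = 0.263. The 52 tested arms of the Sfmbt2 cluster families had no call, a median of 0.20 and changes from -0.51 for miR-467a-5p, the most abundant, to 1.24. These arms were gathered by name, and whether each is encoded in an intron of Sfmbt2 was not checked. miR-210-3p, the miRNA induced by hypoxia, was 244, 224, 264 and 419 CPM in replicates 1 to 4 of D1 and 392, 405, 257 and 624 CPM in those of D3 (log2 fold change 0.54, SE 0.21, adjusted p = 0.0818), and miR-210-5p had -0.68, adjusted p = 0.101. Without D1 replicate 4 or D3 replicate 3, miR-210-3p passed, with changes of 0.81 and 0.72 and adjusted p of 0.0109 and 0.0164. In the erythroid list the only calls were the identical rows of miR-486a-5p and miR-486b-5p, a miRNA also made in muscle, at 493 ± 88.6 and 269 ± 44.9 CPM (SD, n = 4; log2 fold change -0.87, SE 0.24, adjusted p = 0.0134). Without D1 replicate 3 their change was -0.72 with an adjusted p of 0.0611. The summed level of the erythroid list was 971 to 1577 CPM at D1 and 733 to 891 CPM at D3, without overlap. In this sum the identical rows of miR-486a-5p and miR-486b-5p are both counted. miR-451a, the most particular to red cells, had 0.62, adjusted p = 0.314, miR-144-3p had 0.59, adjusted p = 0.394, miR-144-5p had -0.40, adjusted p = 0.587 and miR-486a-3p had -0.71, adjusted p = 0.0631.

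The use of the 2 arms of a hairpin was compared by the ratio of counts on the 5p arm to counts on the 3p arm (log2), which does not depend on library scaling. Of the 152 hairpins with enough counts on both arms, 0 differed between D3 and D1 (0% of those tested; limma, Benjamini-Hochberg adjusted p, lowest 0.0509), while 14 had an unadjusted p under 0.05. The median absolute change was 0.35, and 14 hairpins had one of at least 1. The 3 hairpins nearest to the threshold were miR-409 (-1.26), miR-376c (-2.36, with as few as 0 counts on an arm) and miR-144 (-0.94, where the mean ratio went from 0.58 ± 0.21 at D1 to -0.36 ± 0.31 at D3, SD, n = 4). The least mean of 10 counts per arm was taken over all 24 HC libraries, and over the 8 compared the lower arm of miR-376c averaged 4.1 counts. Without replicate 3 of D0, a library of 18286 mature counts, 8 hairpins passed, with miR-409 and miR-144 each at adjusted p = 0.0128 (limma). The count of 0 therefore depends on keeping that library. The paper removed 1 D0 replicate of HCs from its small RNA data as an outlier and does not say which.

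The change in HCs was set against that in FBs, for which RNA input and PCR cycles were equal to those of HCs and which came from the hearts of the same animals on each day. In FBs 137 of 696 tested miRNAs differed between D3 and D1 (19.7%), 80 higher (11.5%) and 57 lower (8.19%). The change itself differed between HCs and FBs for 47 miRNAs (6.75%), above that of FBs for 15 (2.16%) and below it for 32 (4.6%). miR-34a-5p rose in HCs while its change in FBs was -0.03 (difference 1.59, SE 0.33, adjusted p = 7.42e-04). For miR-222-3p the change in FBs was -0.35 and the difference 1.19 (adjusted p = 8.91e-05). miR-22-5p had a difference of 0.73 (adjusted p = 0.0134), which missed the threshold with day and replicate number as a block (0.73, adjusted p = 0.0552). The falls of miR-126a-3p, miR-143-3p and miR-145a-3p exceeded those in FBs, with differences of -1.17, -1.07 and -0.97 (adjusted p = 0.0341, 0.00885 and 0.0081). The difference of miR-126a-3p lost its call without replicate 1 or 2 of D1 or 1 or 4 of D3 in HCs, or replicate 2 or 3 of D1 or 4 of D3 in FBs, with adjusted p from 0.0502 to 0.0875, and with the block (-1.08, adjusted p = 0.0597).

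For other named miRNAs a difference between the cell types was not shown. miR-21a-5p rose in FBs as well, by 1.23 (adjusted p = 4.31e-05), and its difference of -0.51 had an SE of 0.31 and an adjusted p of 0.375. miR-7a-5p rose in FBs by 1.00 (adjusted p = 1.93e-04), and its difference of -0.61 did not pass (adjusted p = 0.195). miR-125a-5p fell in both, by 0.81 in FBs, with a difference of -0.31 (SE 0.31, adjusted p = 0.621).

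**Figure D5:**
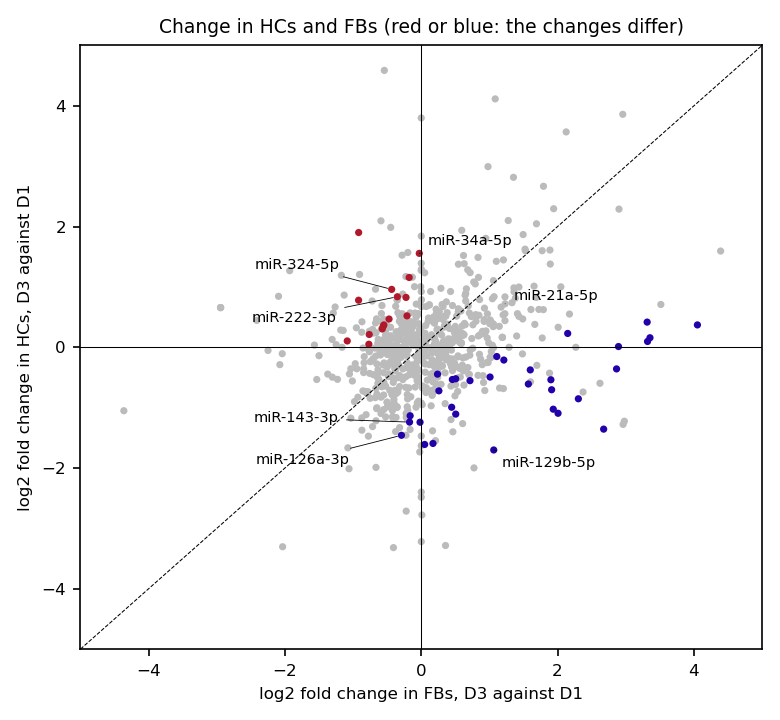
Each point is 1 of the 696 tested miRNAs, with its log2 fold change at D3 against D1 in FBs on the x axis and in HCs on the y axis; the dashed line marks equal changes, red marks the 15 miRNAs whose change in HCs was above that in FBs and blue the 32 below. miR-34a-5p and miR-222-3p lie above the line near 0 in FBs, miR-126a-3p and miR-143-3p below it, and miR-21a-5p is positive in both.

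On the other days sampled, the levels of the leading miRNAs lay as follows. miR-34a-5p was at 127 ± 10.9 CPM at D0 (SD, n = 3, without the library of 18286 counts), 249 ± 68.8 CPM at D7 and 168 ± 28.3 CPM at D28 (SD, n = 4), so D1 was the lowest of these days. miR-21a-5p was at 47317 ± 5586 CPM at D0, 139770 ± 33181 CPM at D7 and 91250 ± 12742 CPM at D28. miR-126a-3p was at 99250 ± 27503 CPM at D0, 19517 ± 3376 CPM at D7 and 22256 ± 2192 CPM at D28, with D3 the lowest mean. miR-125a-5p was at 10367 ± 1707 CPM at D0 and 3323 ± 979 CPM at D7, both above its level at D3. miR-223-3p was at 961 ± 68.9 CPM at D0 and 1159 ± 214 CPM at D7, below both D1 and D3. These levels are given as a description without a test.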

How the data were processed

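Small RNA libraries were made with the NEBNext small RNA kit and sequenced on an Illumina HiSeq. The authors trimmed the reads (Trim Galore), removed those shorter than 18 nt, aligned them with the nf-core smrnaseq workflow to mature miRNAs of miRBase (release 21 is named in the methods) and deposited whole-number counts per mature miRNA. The submitters' processing notes name Bowtie2, SAMtools and mm10. The deposited counts are not normalised and hold no molecular identifiers, so PCR copies count as reads. The reads matching no mature miRNA were left out of library sizes and tests. Mature rows were 1978, of which 1239 had a count at D1 or D3, and 11 sets of rows (25 rows) had identical counts in all HC libraries. No library was identical to another.

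The members, lists and tests were chosen with earlier results of these data known. Changes were tested with edgeR (4.0.16, R 4.3.3; quasi-likelihood, TMM, filterByExpr) on the 24 HC libraries of 6 days, so that other days share the estimate of the spread; the D3 to D1 contrast was read. Arm ratios, log2 of 5p over 3p counts with 0.5 added, were taken for hairpins averaging 10 or more counts per arm and were tested with limma (3.58.1), and the difference from FBs by an interaction over 48 libraries in edgeR. All p-values were Benjamini-Hochberg adjusted with a threshold of 0.05. The scripts were tested on simulated counts. Named were the up to 10 largest rises and falls that averaged 100 CPM or more without overlap, the 10 most abundant miRNAs, in each list the most abundant and most changed member at 10 CPM or more, and the members of lists with up to 8 tested arms, for which ranges are given where none was called. "Plain CPM" is the mean of counts per 1000000 mature counts, over D1 and D3 for HCs and over all days for CMs, ECs and FBs. Sequences and positions are from RefSeq and the gene annotation of GRCm38.p6, and 495 of the 608 tested names matched. A hairpin is given as overlapping an exon where any annotated transcript of the gene has an exon there.

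At each day the pools came from different animals, so replicate numbers do not pair D1 with D3. The correlations of same-numbered libraries were 0.07, 0.19, -0.18 and 0.07. Pools of different cell types came from the same animals of a day. The alternatives were DESeq2 (1.42.0), other scalings, no filter, other sets of libraries, a replicate block and leaving out each library. Total RNA libraries were not analysed here.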

Additional observations from a re-analysis of the deposited data

Results flagged for a closer look

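In 212 sets of 4 libraries examined, 11 held a library far from the other 3 by Dixon's test, about as many as the 1 in 20 that chance gives. The total count was one of them, with 24081381 in D3 replicate 2. The others are log2 CPM values. At D1 they were miR-326-3p in replicate 2 (5.35), miR-142a-5p in replicate 4 (11.98, against 11.23 to 11.30 in the others) and miR-143-5p in replicate 3 (5.88). At D3, replicate 1 was low for miR-146a-5p (13.09) and miR-199a-3p (10.62). Replicate 3 of D3 was high for miR-9-5p (5.73), miR-204-5p (4.98), miR-409-3p (3.94) and miR-181a-2-3p (5.24) and low for miR-208a-3p (4.58).

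The change from D1 to D3 differed between HCs and FBs (edgeR interaction, Benjamini-Hochberg adjusted p under 0.05) for 14 of the 103 miRNAs named, all of them tested. Over all 696 tested miRNAs it differed for 47 (6.75%). Many of the 103 were named for their change in HCs, which enters this difference, so the 2 counts cannot be compared. Changes in HCs were above those in FBs for miR-34a-5p (1.59), miR-324-5p (1.39), miR-222-3p (1.19), miR-326-3p (1.05) and miR-22-5p (0.73). They were below those in FBs for miR-129b-5p (-2.77), miR-147-3p (-1.92), miR-143-5p (-1.77), miR-126a-3p (-1.17), miR-143-3p (-1.07), miR-148a-3p (-1.03), miR-467a-5p (-0.99), miR-322-3p (-0.98) and miR-145a-3p (-0.97). In plain CPM, miR-129b-5p was at only 0.40 in FBs and 4.10 in HCs, and miR-147-3p at 2.02 in FBs and 49.6 in HCs. When each of the 16 libraries of D1 and D3 was left out in turn, the call was lost 7 times for miR-126a-3p, 5 for miR-148a-3p (adjusted p up to 0.0785), 5 for miR-322-3p (up to 0.078), 7 for miR-326-3p (up to 0.0913) and 11 for miR-467a-5p (up to 0.145).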

How the results depend on the processing

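The count of 97 changed miRNAs stayed between 71 and 122 under the alternatives run, and 71 to 113 when 1 library of D1 or D3 was left out (71 without D1 replicate 3 or D3 replicate 1), and no call that was shared with an alternative had the opposite direction. The share of rises moved more, from 39.2% to 51.6% with DESeq2 (91 calls), 54.3% with library size (116), 58.2% with RLE factors (122), 29.8% without a filter (94) and 23.8% with TMM factors from the miRNAs highest in HCs (80, chosen after seeing the data). The 8 libraries alone gave 75 calls, the 20 libraries without D0 108 (also chosen after seeing the data), the fit without replicate 3 of D0 107 and one row per identical set 97. The replicate block, for numbers that do not pair D1 with D3, gave 94 calls, in which miR-7a-5p (adjusted p = 0.0544), miR-221-5p (adjusted p = 0.0555) and miR-100-5p (adjusted p = 0.0629) missed the threshold, while let-7e-3p (adjusted p = 0.0492) and miR-486a-3p (adjusted p = 0.0496) passed it. The differences from FBs numbered 47, 42 with the block, 58 with DESeq2 and 35 to 52 without 1 library. Changed arm ratios numbered 0, but 2 with at least 50 counts on each arm, 8 without replicate 3 of D0 and 0 to 2 (1 without D1 replicate 2 or D3 replicate 3, 2 without D3 replicate 1 or 4) without 1 library of D1 or D3; the block gave 0.

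Only changes that had not passed the test turned sign. let-7a-5p went to 0.091 with DESeq2 and RLE factors, 0.050 with library size and 0.038 without D0, and lay between -0.19 and 0.074 without 1 library. miR-26a-5p went to 0.031 with DESeq2 and RLE factors. let-7g-5p went to -0.034 without a filter and to -0.10 with TMM factors from the miRNAs highest in HCs, a scaling that gave -0.0058 for let-7f-5p, -0.022 for miR-150-5p and -0.045 for miR-222-5p. Without 1 library of D1 or D3, let-7f-5p lay between -0.038 and 0.20, let-7g-5p between -0.13 and 0.11, miR-222-5p between -0.15 and 0.27, miR-155-5p between -0.22 and 0.14, miR-150-5p between -0.066 and 0.32 and miR-144-5p between -0.79 and 0.15. Without a filter miR-221-3p, miR-22-5p, miR-7a-5p, miR-221-5p, miR-34b-5p, miR-98-5p, miR-500-3p and miR-132-5p lost their calls, where 1435 miRNAs were tested. Without replicate 3 of D0 miR-27b-3p, miR-34c-5p, miR-7b-5p, miR-99a-5p and miR-7a-1-3p passed, with adjusted p from 0.00679 to 0.0459. With DESeq2 miR-208a-5p, miR-132-5p, miR-100-5p, miR-542-3p and miR-195a-5p lost their calls, with adjusted p from 0.0586 to 0.165, and miR-27b-3p, miR-34c-5p, miR-7b-5p and miR-21a-3p gained one. The cause was not tested. Low counts limit the arms under 10 CPM, and intervals from counts cover counting error only.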

Other observations

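Within D3, replicates 3 and 4 stood at opposite ends for several miRNAs, a pattern seen after the values were known and given without a test. Replicate 3 was the lowest of the 4 and replicate 4 the highest for miR-34a-5p (149.8 and 356 CPM), miR-511-3p (291 and 916 CPM), miR-210-3p (257 and 624 CPM), miR-30b-5p (1732 and 3481 CPM) and miR-21a-5p (108400 and 153790 CPM). The reverse held for let-7f-5p (94846 and 59235 CPM), let-7a-5p (83290 and 48687 CPM), let-7i-5p (54901 and 34364 CPM), miR-126a-3p (20929 and 11185 CPM) and miR-125a-5p (1777 and 983 CPM). For miR-34a-5p, miR-21a-5p, let-7i-5p, miR-126a-3p and miR-125a-5p both of these D3 libraries lay on the same side of all D1 libraries. For let-7f-5p, let-7a-5p, miR-210-3p and miR-511-3p at least 1 of the 8 libraries crossed into the range of the other day.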
